A study of Homo sapiens with 2 samples.

Results

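In B2B cells, 281 promoters that are poor in CpG dinucleotides were open in both ATAC-seq replicates. A promoter was counted as poor in CpG when fewer than 30 CpG lay within 500 bp to either side of the transcription start site (TSS) in hg38, and as open when a peak overlapped the 1 kb to either side of the TSS in both replicates. Of 19970 protein-coding promoters on chromosomes 1 to 22 and X, 4954 were poor in CpG, and the 281 open ones were 2.69% of the 10456 open promoters (95% Wilson interval 2.39 to 3.02). The members were thus chosen by their CpG count and by the presence of a peak in both replicates, and both are given as a description.

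ATAC-seq reads accessible DNA through adapters that the Tn5 transposase inserts into it. B2B (BEAS-2B) is an immortalized, non-cancerous line of human bronchial epithelial cells, and both samples were wild type, untreated and grown in serum-containing medium. The samples are 2 replicates of this 1 line and 1 condition, so no groups were compared, no test was run, and all intervals cover counting error only. The unit of replication is the replicate and not the promoter, and errors on medians and shares are SDs over the 2 replicates.

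Most human promoters lie in CpG islands, where unmethylated CpG-dense DNA is commonly open in many cell types. CpG-poor promoters often belong to genes used by few tissues or in response to a stimulus, and they hold a TATA box more often, an element just upstream of the TSS that positions the start of transcription. AP-1, a dimer of Fos and Jun family proteins, binds a 7-base motif that is frequent in open regions away from promoters.

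The motif sequences below come from hg38 and show the motifs that the results turn on at the members themselves, each with 20 bases to either side. They are written 5′ to 3′ along the strand of the gene, with the motif in capitals. The AP-1 motif was searched as TGACTCA or TGAGTCA, which are each other's reverse complement, so both strands are covered. These AP-1 motifs lay within 100 bp of the summit in both replicates, at members among the 8 with the highest fold enrichment of this kind and at 2 members of the gene lists, LAMB3 and S100A3. A match is a description of the letters, not of a bound factor. Across all 19970 promoters, 2.12% held the motif within 100 bp of the TSS.
HHIPL2 (minus strand, chr1:222547135-222547181): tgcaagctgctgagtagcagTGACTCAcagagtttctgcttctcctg
SPATA12, upstream site (plus strand, chr3:57060523-57060569): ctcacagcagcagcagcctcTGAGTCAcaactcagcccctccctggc
SPATA12, downstream site (plus strand, chr3:57060580-57060626): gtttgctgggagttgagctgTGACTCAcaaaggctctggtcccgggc
PDCD1LG2 (plus strand, chr9:5509824-5509870): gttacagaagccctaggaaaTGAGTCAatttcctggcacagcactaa
DYNLT4 (minus strand, chr1:44807527-44807573): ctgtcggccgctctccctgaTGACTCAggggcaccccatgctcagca
LAMB3 (minus strand, chr1:209651415-209651461): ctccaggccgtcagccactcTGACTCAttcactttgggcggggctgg
S100A3 (minus strand, chr1:153549457-153549503): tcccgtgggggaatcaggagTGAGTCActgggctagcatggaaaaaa

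TATA boxes were searched as TATAAA on the strand of the gene, from 45 to 15 bp before the TSS, and 4.001% of all promoters held it. The 4 shown are from named members and touch no annotated UTR.
STING1 (minus strand, chr5:139482765-139482810): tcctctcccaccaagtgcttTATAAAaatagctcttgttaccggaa
RGS4 (plus strand, chr1:163069311-163069356): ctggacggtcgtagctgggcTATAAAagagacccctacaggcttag
VWC2L (plus strand, chr2:214411004-214411049): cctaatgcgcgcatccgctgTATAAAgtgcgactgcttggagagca
CRCT1 (plus strand, chr1:152514431-152514476): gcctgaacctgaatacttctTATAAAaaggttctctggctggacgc

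The third motif was the core of the interferon response element, GAAA, any pair of bases and GAAA again, on either strand, which 1.87% of all promoters held within 100 bp of the TSS. At the named members it was searched just upstream of the TSS, and not around the summit. Of those in the interferon and TRIM lists, TRIM34, IFIT1 and IFI6 had such a site outside UTRs. This search reached further than 100 bp before the TSS. The 1.87% is thus not a like share for the sites of IFIT1 and the upstream and middle sites of IFI6. At TRIM34 and IFIT1 the motif lay on the opposite strand.
TRIM34 (plus strand, chr11:5624891-5624940): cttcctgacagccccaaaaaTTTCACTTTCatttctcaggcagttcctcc
IFIT1 (plus strand, chr10:89392487-89392536): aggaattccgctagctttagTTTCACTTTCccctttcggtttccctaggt
IFI6, upstream site (minus strand, chr1:27672319-27672368): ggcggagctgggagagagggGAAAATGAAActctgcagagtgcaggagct
IFI6, middle site (minus strand, chr1:27672278-27672327): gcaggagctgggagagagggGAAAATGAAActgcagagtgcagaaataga
IFI6, downstream site (minus strand, chr1:27672256-27672305): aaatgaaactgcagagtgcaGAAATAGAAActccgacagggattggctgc

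The lists held 28874 peaks in replicate 1 and 36319 in replicate 2. The median summit had 35 and 30 fragments, and the lowest 16 and 13. Peaks are called against the local background, and a promoter outside the lists may still be accessible. Of the defining markers, 1 of 12 epithelial genes (KRT18) and 8 of 9 mesenchymal genes (all but COL1A2) had an open promoter, as did 1 of 4 blood genes (CD14), 0 of 3 endothelial genes and 0 of 2 erythroid genes. Over all promoters 52.4% were open, with 67.8% of the CpG-richer and 5.67% of the CpG-poor ones. The marker sets differ in this respect. CpG-poor were 2 of the epithelial, 1 of the mesenchymal, 3 of the blood and all of the endothelial and erythroid genes. The counts of the last 3 sets therefore do not speak to these lineages. The promoters of CDH1 and EPCAM, which define epithelial cells, did not have a peak in both replicates, although the label gives a bronchial epithelial line.

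CpG-poor promoters were seldom open in B2B cells, and the share rose steeply with the CpG count. A peak lay at 5.67% of them in both replicates (95% Wilson interval 5.06 to 6.35), against 67.8% of the 15016 promoters with 30 or more CpG and 52.4% of all promoters. With 0 to 9 CpG, 29 of 1802 promoters were open (1.61%), with 10 to 19 CpG 129 of 2014 (6.41%) and with 20 to 29 CpG 123 of 1138 (10.8%). The rise went on past the limit, to 27.4% at 30 to 39 CpG and 57.4% at 40 to 59 CpG, and levelled at 71.8% to 74.9% from 60 CpG on. The limit of 30 CpG thus lies within the rise.

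**Figure D1:**
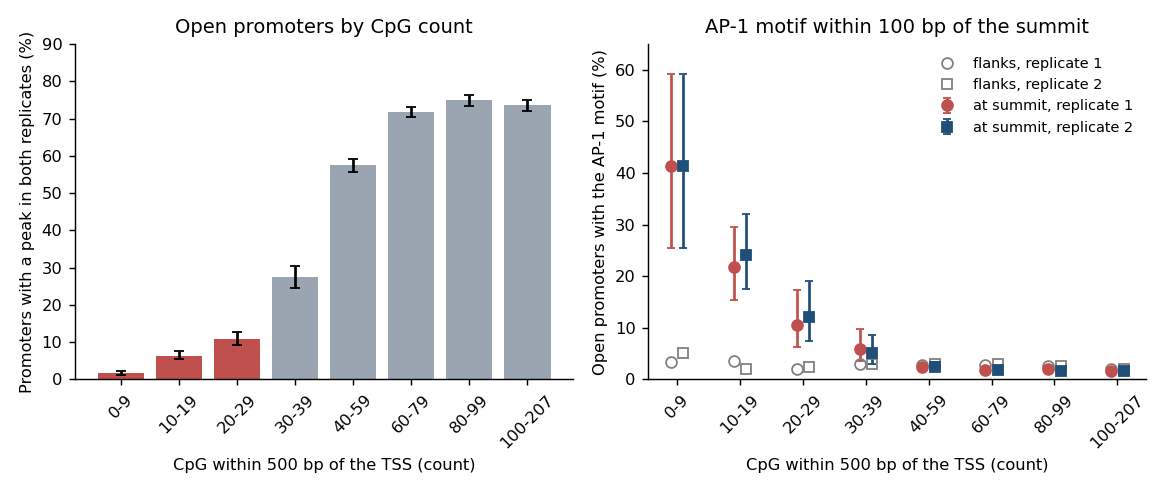
Left, share of promoters (%) with a peak in both replicates by the CpG count within 500 bp of the TSS, with 95% Wilson intervals, where the 3 red bars hold the CpG-poor promoters and rise from 1.61% to 10.8%. Right, share of the open promoters (%) with the AP-1 motif within 100 bp of the summit (filled, with 95% Wilson intervals) and in the flanking windows (open symbols), by replicate, falling from 41.4% at 0 to 9 CpG to under 2.5% from 40 CpG on.

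The replicates shared fewer of the CpG-poor promoters than of the richer ones. A CpG-poor promoter had a peak in 296 cases in replicate 1 and in 374 in replicate 2, with 15 found only in replicate 1 and 93 only in replicate 2. Of the 389 with a peak in either replicate 72.2% had it in both (67.6 to 76.5), against 89.2% (88.6 to 89.8) of 11406 CpG-richer promoters. The 108 CpG-poor promoters with a peak in 1 replicate are not members.

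The 281 genes do not stand for as many independent regions. They had 279 distinct TSSs and 265 distinct peaks in each replicate, since 31 members shared a peak with another member. DYNLT4 and BTBD19, for example, were assigned the same peak, as were TRIM6 and the readthrough gene TRIM6-TRIM34. By chromosome, 24 of 184 CpG-poor promoters on chromosome 5 were open (13.04%), the highest share of any chromosome, and without chromosome 5 the share was 5.39%.

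The peaks at CpG-poor open promoters were lower and narrower than those at CpG-richer ones, in both replicates. Fold enrichment, fragment number at the summit divided by the local background, had a median of 6.24 in replicate 1 and 7.70 in replicate 2 (6.97 ± 1.04, SD, n = 2), against 8.14 and 9.74 at the 10175 CpG-richer open promoters. Within each replicate the ratio of the medians was 0.766 and 0.791 (0.778 ± 0.0175, SD, n = 2). The distance of this ratio from 1 was larger than its spread, while replicate 2 had the higher median in both classes. The ranges overlapped widely, from 3.11 to 20.95 in replicate 1 and from 3.28 to 23.5 in replicate 2 at the members.

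The summits of the members had a median of 36 fragments in each replicate, against 48 and 47 at the CpG-richer open promoters. The median width was 272 and 327 bp (299.5 ± 38.9, SD, n = 2), against 485 and 570 bp. On these measures the members stood near the open regions over 1 kb from any annotated TSS, whose median fold enrichment was 5.89 and 7.48, whose median width was 246 and 298 bp and whose summits had a median of 34 fragments in both replicates.

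Among the members, fold enrichment hardly followed the CpG count, with a Spearman correlation of -0.06 across the 281 promoters. Across the same promoters, the replicates had a Spearman correlation of 0.77 in fold enrichment, against 0.86 across the CpG-richer open promoters. Promoters of 1 library are not independent replicates, and these correlations are descriptions. The fold enrichment was higher in replicate 2 at 229 of the 281 members (81.5%) and at 71.2% of the CpG-richer open promoters.

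**Figure D2:**
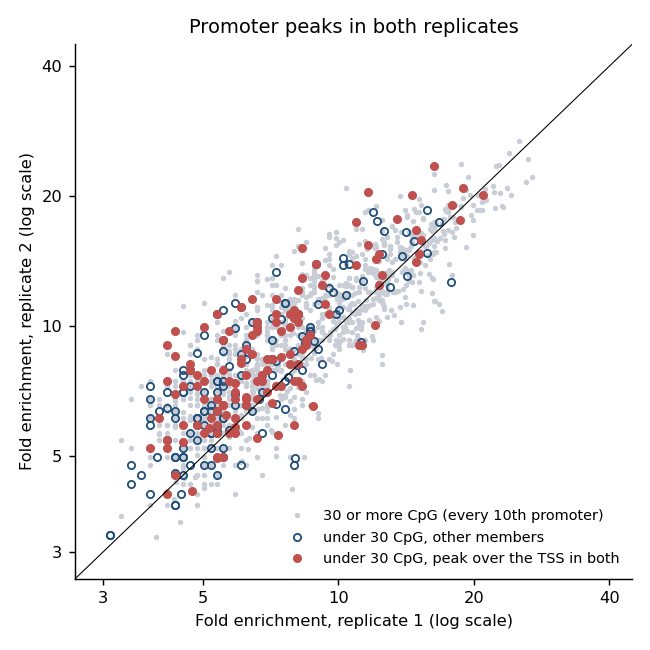
Fold enrichment of the promoter peak in replicate 1 and replicate 2 (log axes) for the 281 CpG-poor open promoters, split by whether the peak covers the TSS in both replicates, over every 10th CpG-richer open promoter in grey; the line marks equal values. The members lie between 3.11 and 20.95 in replicate 1, and 229 of them lie above the line.

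Just inside the CpG limit, the 34 members with 28 or 29 CpG had a median fold enrichment of 5.54 and 7.48, and just outside it the 38 open promoters with 30 or 31 CpG had 6.84 and 7.70. The AP-1 motif lay near the summit in 8.82% and 11.8% of the former and in 15.8% of the latter in both replicates.

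The peaks sat at the annotated start less often than at CpG-richer promoters. The summit lay a median of 136 bp from the TSS in replicate 1 and 159 bp in replicate 2, against 99 and 101 bp. It was upstream of the TSS at 69.4% and 71.2% of the members, in the first exon at 38 in each replicate and in the first intron at 36 and 32. The summit lay more than 500 bp away at 29.5% and 29.9% of the members, against 8.22% and 8.18% of the CpG-richer open promoters.

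The peak covered the canonical TSS at 150 members in replicate 1 and 151 in replicate 2 (53.4% and 53.7%), against 82.8% and 85.9% of the CpG-richer open promoters. It did so in both replicates at 136 members and in neither at 116. For part of these the peak covered another start. In replicate 1 it lay over another transcript of the same gene at 41 members, over another protein-coding gene at 19 and over a non-coding gene at 5, and in replicate 2 these counts were 41, 23 and 3. No annotated TSS was covered at 66 and 63 members (23.5% and 22.4%), 52 of them in both replicates, against 8.01% and 6.29% of the CpG-richer open promoters. "Open promoter" therefore means a peak near the TSS for all members but a peak over it for 136.

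**Figure D3:**
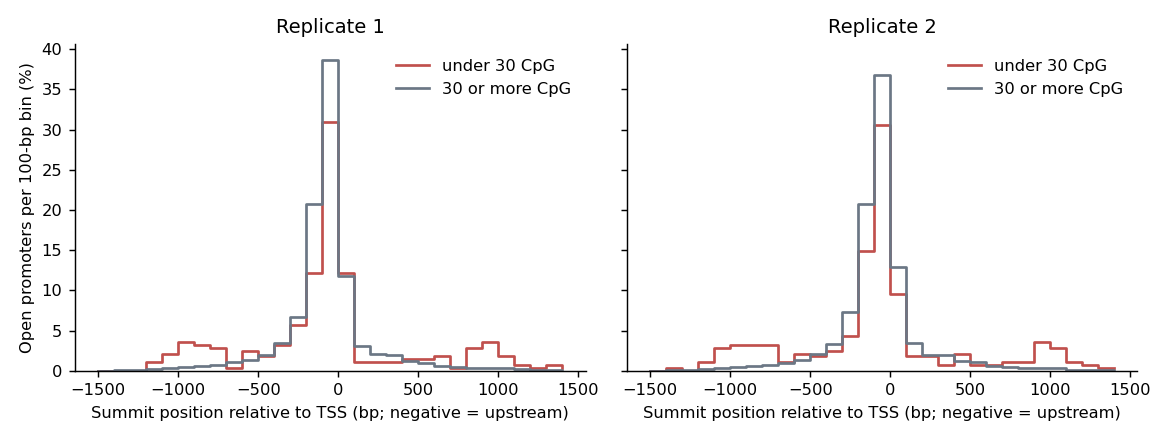
Share of open promoters (%) per 100-bp bin of the position of the peak summit relative to the TSS, negative values upstream, for CpG-poor (red) and CpG-richer (grey) promoters in each replicate. Both have their highest bin just upstream of the TSS, and the CpG-poor promoters have further shoulders near 1 kb on either side, with 29.5% and 29.9% of their summits beyond 500 bp.

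The DNA under the summit was not always poor in CpG. At 55 members in replicate 1 and 56 in replicate 2 (19.6% and 19.9%) the 500 bp to either side of the summit held 30 or more CpG, and 51 did so in both. This was the case for 41.4% and 40.5% of the members whose peak missed the TSS in both replicates and for 2.94% and 3.68% of those whose peak covered it in both. FER, which encodes a tyrosine kinase, shows this case and was chosen after its values were seen. Its peak had the most fragments of any member, 384 and 351, with a fold enrichment of 16.8 and 17.5, but its summit lay 957 and 939 bp downstream of the canonical TSS over another transcript start, with 89 CpG around it in replicate 1.

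The surroundings of the members held more open chromatin than those of CpG-poor promoters without a peak. Another protein-coding TSS lay within 1 kb at 42 members (14.9%), against 3.04% of the 4565 CpG-poor promoters with no peak in either replicate and 21.6% of the CpG-richer open promoters. An alternative start of the same gene, over 2 kb away, had a peak in both replicates at 41 members (14.6%), against 4.80% and 6.56%. Fewer of the promoters without a peak had an annotated alternative start that far away, and among genes with one the counts were 41 of 133 members, 219 of 1392 CpG-poor promoters without a peak and 667 of 4580 CpG-richer open promoters. No peak lay between 2 and 50 kb of the TSS at 23.5% and 19.2% of the members, against 45.2% and 39.7% of the CpG-poor promoters without a peak. At the CpG-richer open promoters this share was 32.3% and 25.2%. A start within 1 kb can bring a peak of its own into the window, so the first of these shares is tied to the rule.

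The AP-1 motif, which the rule did not use, was far more frequent at the summits of CpG-poor open promoters than at those of CpG-richer ones. Of the 281 members, 53 held TGACTCA or TGAGTCA within 100 bp of the summit in replicate 1 (18.9%, 95% Wilson interval 14.7 to 23.8) and 58 in replicate 2 (20.6%, 16.3 to 25.8), or 19.8% ± 1.26 (SD, n = 2). At the CpG-richer open promoters the share was 1.98% and 1.88%, so that the share at the members was 9.55 times as high in replicate 1 and 10.996 times in replicate 2. In total 50 members held the motif in both replicates and 61 in either.

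The motif was concentrated at the summit. In windows of the same length 1 kb to either side, 2.85% and 2.49% held it. In windows at the TSS instead of the summit, 11.03% of the members and 4.45% of the CpG-poor promoters without a peak held it. The open regions over 1 kb from any TSS had the higher share of 36.3% and 36.1%. Base composition at the summit differed between the classes, with a median GC content of 56.2% at the members and 69.7% at the CpG-richer open promoters in each replicate, and its part in the difference was not tested.

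**Figure D4:**
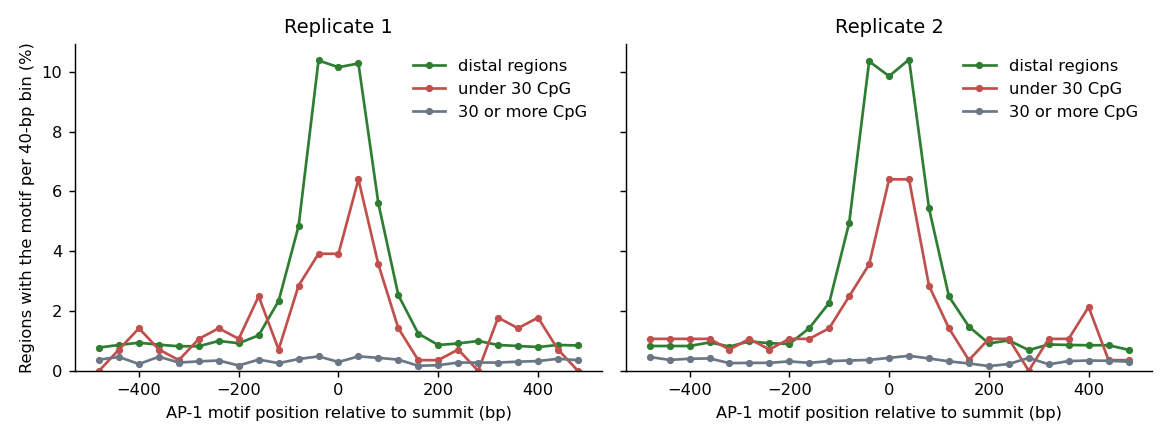
Share of regions (%) with an AP-1 motif centred in each 40-bp bin around the peak summit, by replicate, for open regions over 1 kb from any TSS (green), CpG-poor open promoters (red) and CpG-richer open promoters (grey). The red line peaks within 100 bp of the summit, below the green line and above the flat grey line.

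Over the wide ranges of CpG count below 40, the share of open promoters with the AP-1 motif fell with each step up in CpG. The narrow groups of 28 or 29 and 30 or 31 CpG given above are too small to show a step or its absence. With 0 to 9 CpG, 12 of 29 members held it in each replicate (41.4%, 25.5 to 59.3). With 10 to 19 CpG the share was 21.7% and 24.03%, with 20 to 29 CpG 10.6% and 12.2%, and past the limit, with 30 to 39 CpG, 5.96% and 5.11%.

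Members with the peak over the TSS in both replicates held the motif in 16.9% and 18.4% of cases, and those with the peak off it in both in 22.4% and 24.1%. Where the peak covered no annotated TSS the share was 28.8% and 28.6%. The 50 members with it in both replicates had a median fold enrichment of 6.50 and 8.16, and the 220 with it in neither had 6.24 and 7.93. The members with the motif were thus slightly the higher in both replicates, with no test of the difference.

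HHIPL2 had the highest peak of the members with the motif, at 15.8-fold in replicate 1 and 18.6-fold in replicate 2, and its summit lay in the first intron, 998 and 939 bp downstream of the TSS. SDSL, which encodes a serine dehydratase-like enzyme, had 15.1-fold and 14.7-fold, with the summit 62 and 64 bp upstream of the TSS. At SPATA12 the 2 motifs printed above lay 121 to 115 bp and 64 to 58 bp before the TSS, under a peak of 12.3-fold and 12.5-fold. SDSL and SPATA12 thus held the motif in a peak over the start itself, while HHIPL2 did not.

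S100A2, a calcium-binding protein of epithelial cells, had a peak of 12.99-fold and 12.3-fold with its summit 862 and 845 bp upstream, over the start of another transcript. PDCD1LG2, which encodes the PD-1 ligand PD-L2, had 10.6-fold and 13.9-fold, with the summit 721 and 751 bp upstream and no annotated TSS under the peak. Both peaks lay away from the canonical TSS. The peak shared by DYNLT4, a dynein light chain gene, and BTBD19 had 8.94-fold and 13.95-fold and covered the start of DYNLT4. TREX1, an exonuclease that degrades cytosolic DNA, had 10.4-fold and 11.8-fold, with the peak over the canonical TSS only in replicate 2.

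Motifs that contain CpG are tied to the CpG count that chose the members, so their lower share is not a finding. Their concentration at the summit can be tied to the rule in part. The summit lay more than 500 bp from the TSS at 29.5% and 29.9% of the members, outside the DNA where CpG was limited. A flank of such a summit can fall inside that DNA. The part of the rule in the contrast with the flanks was not tested. The GC box GGGCGG, the site of Sp1, lay near the summit of 30.6% and 31.3% of the members, against 6.94% and 7.12% of their flanks and 72.3% and 71.6% of the CpG-richer open promoters. The ETS motif CGGAAG lay at 16.01% and 14.9%, against 3.91% and 3.02% of the flanks. The CRE half-site TGACGT, which CREB and ATF proteins bind, lay at 8.19% and 6.76%, against 0.890% and 1.07% of the flanks. In windows at the TSS 4.27% of the members and 6.90% of all promoters held it. Within 100 bp of the TSS 18.5% of the members and 53.7% of all promoters held the GC box, and 12.8% and 19.98% the ETS motif. Near the summit in replicate 2, the GC box was held by 39.7% of the members with the peak off the TSS in both replicates. Of the members with the peak over the TSS in both, 24.3% held it, and replicate 1 had the same order. All motifs were searched on both strands, apart from TATAAA.

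Of other motifs without CpG, CCAAT, TEAD and RUNX stood closer to their flanks than AP-1 did. CCAAT, the site of NF-Y, lay at 30.96% and 33.8% of the members, against 21.7% and 23.1% of the flanks. In windows at the TSS 28.1% of the members and 25.2% of all promoters held it. The TEAD motif GGAATG lay at 15.3% and 14.9%, against 12.3% and 12.5% of the flanks, and the RUNX motif TGTGGT at 9.61% and 8.19%, against 11.6% and 12.3%. These 2 motifs were held by 28.4% and 20.3% of the distal open regions in replicate 1. At the TSS 13.2% of the members and 6.48% of all promoters held the TEAD motif, and 7.12% and 6.97% the RUNX motif. The GATA motif AGATAA was rarer at the summits than beside them, at 4.27% of the members in each replicate, against 10.3% and 11.7% of the flanks, and at the TSS 6.05% of the members and 3.42% of all promoters held it. The core of the CTCF site was rare, at 5 and 4 members (1.78% and 1.42%), against 0.178% and 0 of the flanks. The TFAP2 motif GCCNNNGGC, where N is any base, lay at 15.7% and 15.3% of the members, against 5.69% and 5.34% of the flanks. At the CpG-richer open promoters its share was 28.8% and 28.6%.

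The TATA box was present at 14 of the 281 members, or 4.98% (2.99 to 8.19). This was above the 1.72% of the CpG-richer open promoters and below the 9.88% (9.05 to 10.8) of the CpG-poor promoters without a peak in either replicate. The latter had fewer CpG, a median of 12 against 18 at the members. With 0 to 9 CpG 6.90% of the open and 12.4% of all promoters held TATAAA, and with 10 to 19 CpG 3.88% and 8.99%. With 20 to 29 CpG the shares were close, at 5.69% and 5.89%. The open promoters in these ranges numbered 29, 129 and 123. Their shares split the 14 members with TATAAA, so each rests on few promoters and has no interval. The part of the CpG count in the difference was not tested. STING1, the adaptor of cytosolic DNA sensing, had a peak of 7.28-fold and 13.4-fold, but its summit lay 482 and 424 bp downstream of the TSS, over the start of another transcript. RGS4, a regulator of G-protein signalling, had 8.66-fold and 9.52-fold, and VWC2L 7.97-fold and 5.89-fold, both with the peak over the TSS in both replicates.

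CPA4, a carboxypeptidase, had the TATA box and also the AP-1 motif, with 3 CpG around its TSS and a peak of 7.45-fold and 9.74-fold. It was the 1 member with both TATAAA and the AP-1 motif in both replicates. S100A13 had 5.37-fold and 10.6-fold, MUC1, a cell-surface mucin, 7.28-fold and 8.30-fold, and the complement factor gene CFB 6.06-fold and 8.61-fold. The peaks of MUC1 and CFB missed the canonical TSS in both replicates, as did that of CRCT1, at 4.50-fold and 7.93-fold, whose summit lay over 1 kb downstream with 57 and 54 CpG around it.

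The highest peaks over the TSS belonged to genes of varied function. TRIM5, a restriction factor that recognises retroviral capsids, had the highest mean, at 20.95-fold in replicate 1 and 20.2-fold in replicate 2, with 132 and 106 fragments at the summit and 14 CpG around the TSS. PYROXD2 had 16.3-fold and 23.52-fold. FMO4, a flavin-containing monooxygenase, had 18.9-fold and 20.8-fold, with 10 CpG. These values are those of the higher CpG-richer promoters, whose upper quartile was 11.6 and 12.9, although a few of the latter reached 41.9 and 41.3.

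EXOC4, a subunit of the exocyst, had 17.8-fold and 19.0-fold with 29 CpG, just inside the limit. CALD1, the actin-binding protein caldesmon, had 18.6-fold and 17.6-fold with 16 CpG. DNAI3, a dynein intermediate chain gene, had 14.6-fold and 20.2-fold. The remaining members of the 15 highest were MAP3K13, TPP1, ENSG00000251537, SRGAP3, SDSL, TRIM21, FLRT3, MBNL2 and NAT1. Their mean fold enrichment lay below that of the members described first, and SDSL alone among the 15 held the AP-1 motif in both replicates.

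The replicates disagreed most at CHST4, ADAMTSL1 and MACF1. CHST4, a sulfotransferase gene, had 5.02-fold and 9.97-fold, the ADAMTS-like gene ADAMTSL1 4.33-fold and 9.74-fold, and MACF1, which links microtubules to actin, 4.16-fold and 9.06-fold. In each the higher value was that of replicate 2, and the peak covered the TSS in both.

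By gene list, the open shares of CpG-poor promoters ranged from 0 in families such as the beta-defensins to 6 of 13 in the S100 genes, against 5.67% of all CpG-poor promoters. Among genes of the interferon response and antigen presentation, 4 of 21 CpG-poor promoters were open, and GBP2, SAMD9, IFIT2 and IFIT3 had a peak in 1 replicate. IFI16, a sensor of DNA, had 7.97-fold and 10.9-fold with the AP-1 motif near its summit in both replicates. IFIT1, which binds viral RNA, had 6.58-fold and 6.80-fold, IFI6 6.24-fold and 6.80-fold, and OAS2, an oligoadenylate synthetase, 6.24-fold and 6.57-fold. The sequences printed above place interferon response motifs 116 to 107 bp before the TSS of IFIT1 and at 3 sites between 156 and 84 bp before that of IFI6. Over all members this motif lay near the summit of 4.98% and 4.27%, against 3.02% and 3.56% of the flanks.

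Of the CpG-poor TRIM genes, which encode ubiquitin ligases that include antiviral factors, 7 of 34 were open. TRIM5 and TRIM21, a cytosolic antibody receptor with 14.9-fold and 14.05-fold, stood above the others. TRIM38 had 6.06-fold and 11.1-fold, TRIM34 7.45-fold and 8.50-fold, and TRIM56 4.16-fold and 5.21-fold. TRIM6 and TRIM6-TRIM34 count as 2 of the 7 but share 1 peak, of 4.50-fold and 7.02-fold.

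Of 13 CpG-poor S100 genes, which encode calcium-binding proteins, 6 were open, and all 6 lie on chromosome 1. S100A3 had 5.54-fold and 7.25-fold, S100A12 4.68-fold and 7.93-fold, S100A4 5.37-fold and 7.02-fold and S100A16 4.52-fold and 5.39-fold, below S100A2. Neighbouring genes share their surroundings and are not independent. In S100A2 and S100A3 the AP-1 motif lay near the summit in both replicates.

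Among extracellular matrix genes 3 of 10 CpG-poor promoters were open. SPARC, a secreted matrix glycoprotein gene on chromosome 5, had 12.1-fold and 10.1-fold, LAMB3, a chain of laminin-332, 7.45-fold and 10.4-fold, and COL5A2, a collagen V chain, 4.85-fold and 5.89-fold. At LAMB3 the summit lay 988 and 1025 bp downstream of the canonical TSS over another transcript start, and the AP-1 motif printed above lay 1 and 38 bp from it. In the separate list of matrix proteases and inhibitors 2 of 13 CpG-poor promoters were open. Of these PLAT, the tissue plasminogen activator, had 5.72-fold and 9.74-fold.

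Among cytokines and chemokines 3 of 18 CpG-poor promoters were open. IL18 had 4.85-fold and 7.70-fold, CCL2 5.37-fold and 5.72-fold, and CXCL8, a neutrophil chemoattractant with TATAAA before its TSS, 5.37-fold and 4.98-fold. IL18 reached the median of the members in replicate 2 and the other two stayed below it in both replicates. Of the actin and contraction genes 1 of 6 was open, CALD1, and of the integrin and adhesion genes 0 of 3. The AP-1 subunit and early response genes had no CpG-poor promoter, and 16 of 19 were open with 30 or more CpG. Likewise none of 70 replication-dependent histone genes was CpG-poor, and 48 were open. These counts are shares of 84.2% and 68.6%, against 67.8% of all promoters with 30 or more CpG. The histone share is thus close to that of its class.

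**Figure D5:**
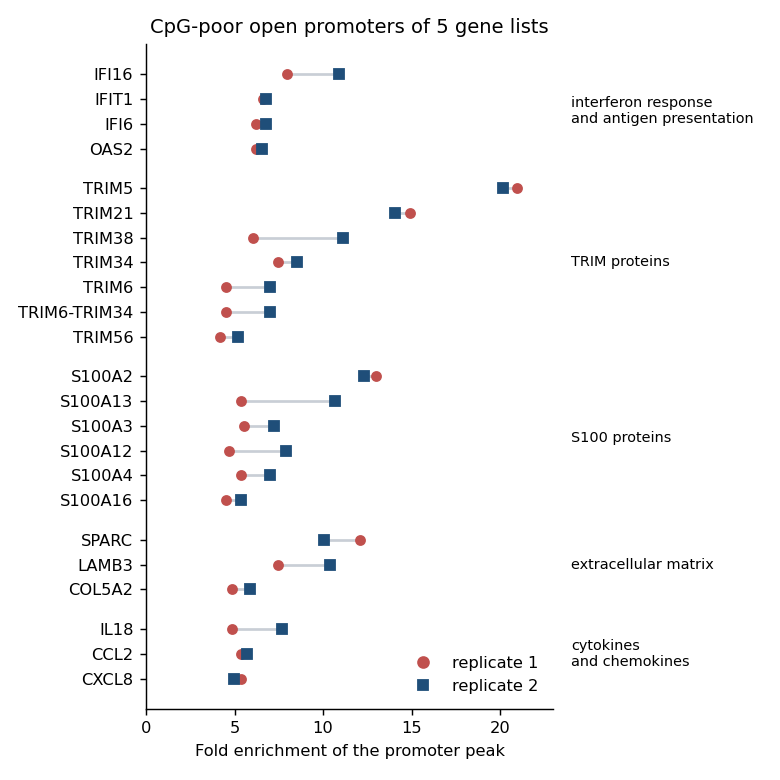
Fold enrichment of the promoter peak in replicate 1 (red circles) and replicate 2 (blue squares) for the CpG-poor open promoters of 5 gene lists, 1 gene per line. TRIM5 stands highest at 20.95 and 20.2, and most others lie between 4 and 12, with replicate 2 mostly the higher.

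Of the large gene families, the olfactory receptors lay well below the open share of 5.67% over all CpG-poor promoters. The keratin and taste receptor shares rest on 1 gene each, without an interval, and are not read as differing from it. Of 410 olfactory receptor genes 2 were open (0.488%), OR2F2 with 4.50-fold and 5.89-fold and OR51D1 with 4.50-fold and 4.98-fold. Of 43 genes of the keratins, the intermediate filament proteins of epithelia, 1 was open (2.33%), KRT80, with 5.37-fold and 5.86-fold and its summit 261 and 340 bp upstream. Of 26 taste receptor genes 1 was open (3.85%), TAS1R1, with 6.06-fold and 4.76-fold, whose peak covered another protein-coding gene with 90 and 83 CpG around the summit. A peak thus lay near a few of these genes, but in OR51D1, KRT80 and TAS1R1 not over the canonical TSS.

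None of 117 keratin-associated and cornified envelope genes was open, which allows a share of up to 2.56%, taken as 3 counts of the total. The same held for 0 of 39 beta-defensin genes (up to 7.69%), 0 of 22 blood lineage genes (up to 13.6%) and 0 of 18 liver and plasma protein genes (up to 16.7%), and these 3 limits lie above the 5.67% of all CpG-poor promoters. Of 17 CpG-poor airway secretory and surfactant genes 1 was open, MUC1, a share of 5.88% that is close to the 5.67% of all CpG-poor promoters. Of 32 CpG-poor ZNF genes 3 were open, ZNF474 with 9.36-fold and 13.1-fold, ZNF484 with 4.85-fold and 7.25-fold and ZNF66 with 5.02-fold and 6.80-fold.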

How the data were processed

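The data were the ATAC-seq peaks of untreated B2B cells, 1 list for each of 2 replicates. Reads were aligned by the authors to hg38 with Bowtie2 2.4.4 and freed of duplicates by their own code, and MACS2 2.2.7.1 then called peaks per replicate with no further removal of duplicates. SAMtools 1.13 is also named in the submitters' processing notes. The q limit, any shift of Tn5 positions and the handling of mitochondrial reads are not given in the sources used here. The deposited fold enrichment is a linear ratio of summit fragments to local background, each with 1 added. Each deposited peak further carries its −log10 p and its −log10 q, which were used unchanged. The score column was not used, nor were 189 and 210 peaks on sequences other than chromosomes 1 to 22 and X. Data of A549 cells and TCGA samples were not analysed here.

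Canonical TSSs came from GENCODE 44, and motifs and CpG were counted in hg38. Where several peaks overlapped a promoter, that with the highest fold enrichment was taken. Fragment numbers at the summits were recovered as the whole number that best fitted fold enrichment and −log10 p together. The fitted −log10 p lay within 0.01 of the deposited one for 99.9% of the peaks in each list. This step, the overlap and the motif search were tested on simulated data. Flanking windows lay 1 kb to either side of the summit. Peaks matching mitochondrial DNA (BLAST 2.17.0, E-value at most 1e-10) numbered 0 among the members. Python 3.11.15, numpy 2.4.6, pandas 2.3.3, scipy 1.17.1, pysam 0.24.0 and matplotlib 3.10.9 were used. Intervals are 95% Wilson intervals.

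The members and the gene and motif lists were chosen with earlier results of these data known. Genes were named as the 15 highest in mean fold enrichment with the peak over the TSS in both replicates, the 8 highest with the AP-1 motif in both, the 8 highest with TATAAA, up to 4 open members per list and the 3 with the largest ratio between replicates. FER, S100A4, S100A16, TRIM6, TRIM6-TRIM34 and TRIM56 were added after their values were seen. The alternatives were other peak thresholds, promoter windows, CpG limits and motif windows or spellings, promoters without a neighbouring start, the nearest peak, and each replicate alone. Peaks over the TSS alone and a run without chromosome 5 were added after seeing the data. Of the members and sequences these rules name, 2 are not reported here.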

Additional observations from a re-analysis of the deposited data

How the results depend on the processing

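No paired analysis was possible because 1 condition was measured, and no call of significance exists to be gained or lost. Of 102 alternative settings of 9 results, 58 moved the value by less than the replicate SD, its interval or, for the count, 1.5 times, and 44 by more. Of 16 chosen after seeing the data, 10 and 6 did. The cause of a move was not tested unless the alternative's construction sets it. The SD is over 2 replicates, and for shares over the same promoters it is small, so small moves exceed it.

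The 281 members became 477 within 3 kb of the TSS, 158 under 20 CpG, 516 under 40 CpG and 136 with the peak over the TSS in each replicate. Each replicate alone gave 296 to 374. The open share of 5.67% became 4.48% within 500 bp, 9.63% within 3 kb, 4.14% under 20 CpG, 8.88% under 40 CpG, 8.001% with an observed to expected CpG ratio under 0.6 and a GC content under 55%, and 5.02% without neighbouring starts. Each replicate alone gave 5.97% to 7.55%.

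The ratio of median fold enrichment to CpG-richer promoters, 0.778, became 0.813 within 3 kb, 0.823 under 40 CpG, 0.867 with the observed to expected ratio, 0.796 without neighbouring starts and 0.753 with the peak over the TSS. Each replicate alone gave 0.750 to 0.753. It stayed under 1 at every setting tried. The medians of fold enrichment and width and the TATAAA share moved by less than their error at every setting, and each replicate alone gave 6.06 to 6.80, 270.0 to 291 bp and 5.07% to 5.08%. These moves are from the mean of the replicates. Against its own value at the members, replicate 2 alone went from 7.70 to 6.80 and from 327 to 291 bp. Replicate 1 alone went from 6.24 to 6.06 and from 272 to 270.0 bp.

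The share with the peak over the TSS, 53.6%, became 54.6% at a −log10 q of at least 5, 55.2% with equal numbers of peaks, 70.9% within 500 bp, 30.1% within 3 kb, 57.3% under 20 CpG, 59.8% under 40 CpG, 66.1% with the observed to expected ratio, 56.9% without neighbouring starts, 59.6% with the nearest peak and 53.1% without chromosome 5. Each replicate alone gave 50.8% to 51.7%.

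The AP-1 share of 19.8% became 26.3% under 20 CpG, 13.3% under 40 CpG, 12.2% with the observed to expected ratio, 22.4% without neighbouring starts, 12.6% within 50 bp of the summit, 23.7% in the whole peak, 22.2% as TGANTCA and 17.6% with the peak over the TSS. Each replicate alone gave 18.6% to 21.9%.

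The share with 30 or more CpG around the summit, 19.8%, became 19.0% with equal numbers of peaks, 9.68% within 500 bp, 36.8% within 3 kb, 11.1% under 20 CpG, 52.5% under 40 CpG, 49.9% with the observed to expected ratio, 16.3% without neighbouring starts, 18.1% with the nearest peak, 3.31% with the peak over the TSS and 20.04% without chromosome 5. Each replicate alone gave 18.4% to 19.6%. Read totals were not used here, and the part of depth in which weak promoters enter was not tested. The lowest summits had 16 and 13 fragments.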
